A study of Homo sapiens with 6 samples.

Results

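Genes of the mitotic spindle, the kinetochore and the centrosome were followed in Huh7 cells, an established human hepatoma line, given GABA (gamma-aminobutyric acid) for 24 h. Members were chosen by name: symbols that start with KIF, CENP, CDCA, BUB, AURK, NCAP, SGO, PLK, CCNA, CCNB, MAD2L, TACC, HAUS, or CEP or SMC followed by a digit, the subunits of the NDC80 and SKA complexes, and a short set of single genes such as MKI67, TOP2A and FOXM1. The rule also asked for a mean count of at least 10 and left out pseudogenes and antisense transcripts. It kept 84 of the 5187 listed genes, all 84 of them protein coding. A further 2 genes fit by name and were left out, KIF25 for its mean count of 5 and KIF9-AS1 as an antisense transcript. The rule itself used no difference between the groups. The listed genes it drew on had been selected by this same comparison, and the members were chosen with earlier results of these data known.

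The study sequenced total RNA from 3 Huh7 libraries with GABA and 3 control libraries without it, labelled as biological replicates 1, 2 and 3 of each group. All cells grew in DMEM with serum and antibiotics, and the labels state no dose of GABA. Whether the replicates were separate cultures is not stated beyond that label, so p-values measure the spread between these libraries. Of 15 hepatocyte and hepatoma markers, 0 are among the genes analysed here, so the labelled line could not be checked against them. Of endothelial and immune markers, 0 of 4 and 0 of 5 are listed. Of 6 fibroblast markers, 2 are listed, PDGFRB and COL3A1, with summed levels of 48.1 to 54.3 CPM with GABA and 52.4 to 68.4 CPM in control. All 3 markers of other common cell lines, PAX2, HOXB7 and HOXB9, are listed, with summed levels of 405 to 421 CPM with GABA and 345 to 352 CPM in control. The part of these markers in the results below was not tested.

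The deposited counts are not a full transcriptome. Summed over listed genes, counts came to 7719243, 7746996 and 8392945 in GABA replicates 1, 2 and 3, and to 8235028, 7702666 and 8027757 in control replicates 1, 2 and 3. The place of a gene in the files followed its p-value in this same comparison (Spearman correlation 0.93 across genes), and the smallest absolute log2 fold change of any tested gene was 0.12. Nearly every listed gene had therefore been selected for a difference between these libraries, and a call on its own says little about a member. Levels are listed counts in CPM units after TMM scaling, and values per library are given in the order of replicates 1, 2 and 3. Each ± after a log2 fold change of GABA over control is the standard error of the edgeR fit with 3 libraries a group, and each adjusted p is from edgeR's quasi-likelihood test with Benjamini-Hochberg adjustment over 4981 tested genes. A gene is called at an adjusted p under 0.05.

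Control replicate 3 stood apart from the other control libraries. Genes encoded in mitochondrial DNA took 6.66%, 7.04% and 6.74% of listed counts with GABA, against 7.74%, 7.14% and 9.11% in control. Across the 84 members, the log2 ratio of control 3 to the mean of controls 1 and 2 had a Spearman correlation of -0.74 with the GC content of the longest transcript (Pearson -0.75), so AT-rich members ran high in that library and GC-rich members low. The same held across 4970 tested genes, with a Spearman correlation of -0.62. These genes share the same libraries, and the correlations are descriptions. The counts of calls are given with and without this library, as are the log2 fold changes of AURKAIP1, CDCA7, CEP131 and CEP20. For other members the place of control 3 is described where it stands out.

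A dividing cell builds a bipolar spindle from microtubules that grow out of 2 centrosomes, and the kinetochore, a protein assembly on each centromere, ties every chromosome to those microtubules. Cyclin-dependent kinase 1 with its cyclins and the Polo and Aurora kinases drive entry into mitosis, and the spindle checkpoint holds back the anaphase-promoting complex until all chromosomes are attached. Many of these genes share a short promoter element, the cell cycle genes homology region or CHR, through which the DREAM complex represses them in G0 and G1 and the MMB-FOXM1 complexes activate them in G2 and mitosis, often beside CCAAT boxes bound by NF-Y. In liver cancer these genes are widely used as readouts of proliferation.

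Of the 84 members, 77 were called higher with GABA and 7 lower, and 0 were left uncalled. Among all tested genes 47.6% were called higher, 51.2% lower and 98.7% either way, so that being called is no property of the members and the split between the directions is what the counts describe. Members called higher made up 91.7% of the list. The median log2 fold change of the members was 0.52, against -0.18 for all tested genes, and the quartiles were 0.37 and 0.64. Changes were moderate in size. An absolute log2 fold change of at least 1 was reached by 2 members, CCNB3 and KIF1A, both with few counts, and by 10.3% of all tested genes. The size of the change in KIF1A rests in part on a low control replicate 3. The extremes were 1.17 for CCNB3 and -0.63 for CEP112.

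Every GABA library lay above every control library for 73 members, against 45.8% of tested genes, and every GABA library lay below for 6, against 46.7% of tested genes. The groups overlapped for 5 members, NDC80, CEP295, CEP55, KIF18A and CDCA7, while they stood apart for 92.5% of tested genes. The members' levels summed to 13861, 14503 and 13787 CPM in the GABA libraries, against 10010.2, 9640.5 and 10745 CPM in the control libraries. Each GABA sum was above each control sum. TOP2A alone made up 9.06%, 9.27% and 8.56% of that sum with GABA and 7.39%, 7.68% and 9.17% in control. The 7 lower members together held 636, 649 and 663 CPM with GABA and 797, 792 and 853 CPM in control. In bulk RNA such as this, fewer cells of a type and less RNA per cell cannot be told apart, and the same holds for more cells in mitosis and more RNA per mitotic cell.

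The split was affected in part by how the libraries were scaled. When the libraries were scaled so that the median log2 fold change of all tested genes was 0, a shift of 0.18, the tested genes called higher and lower were 2373 and 1007 (47.6% and 20.2%) in place of 2369 and 2549. All 77 higher members kept that call, the members called lower numbered 3, and the members' median was 0.69. Nearly all listed genes had been selected for a difference. Neither TMM nor this median scaling therefore has a bulk of unchanged genes to rest on, and which is closer to the truth cannot be told. Without control replicate 3, 76 members were called higher and 6 lower, with a median of 0.55.

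**Figure D1:**
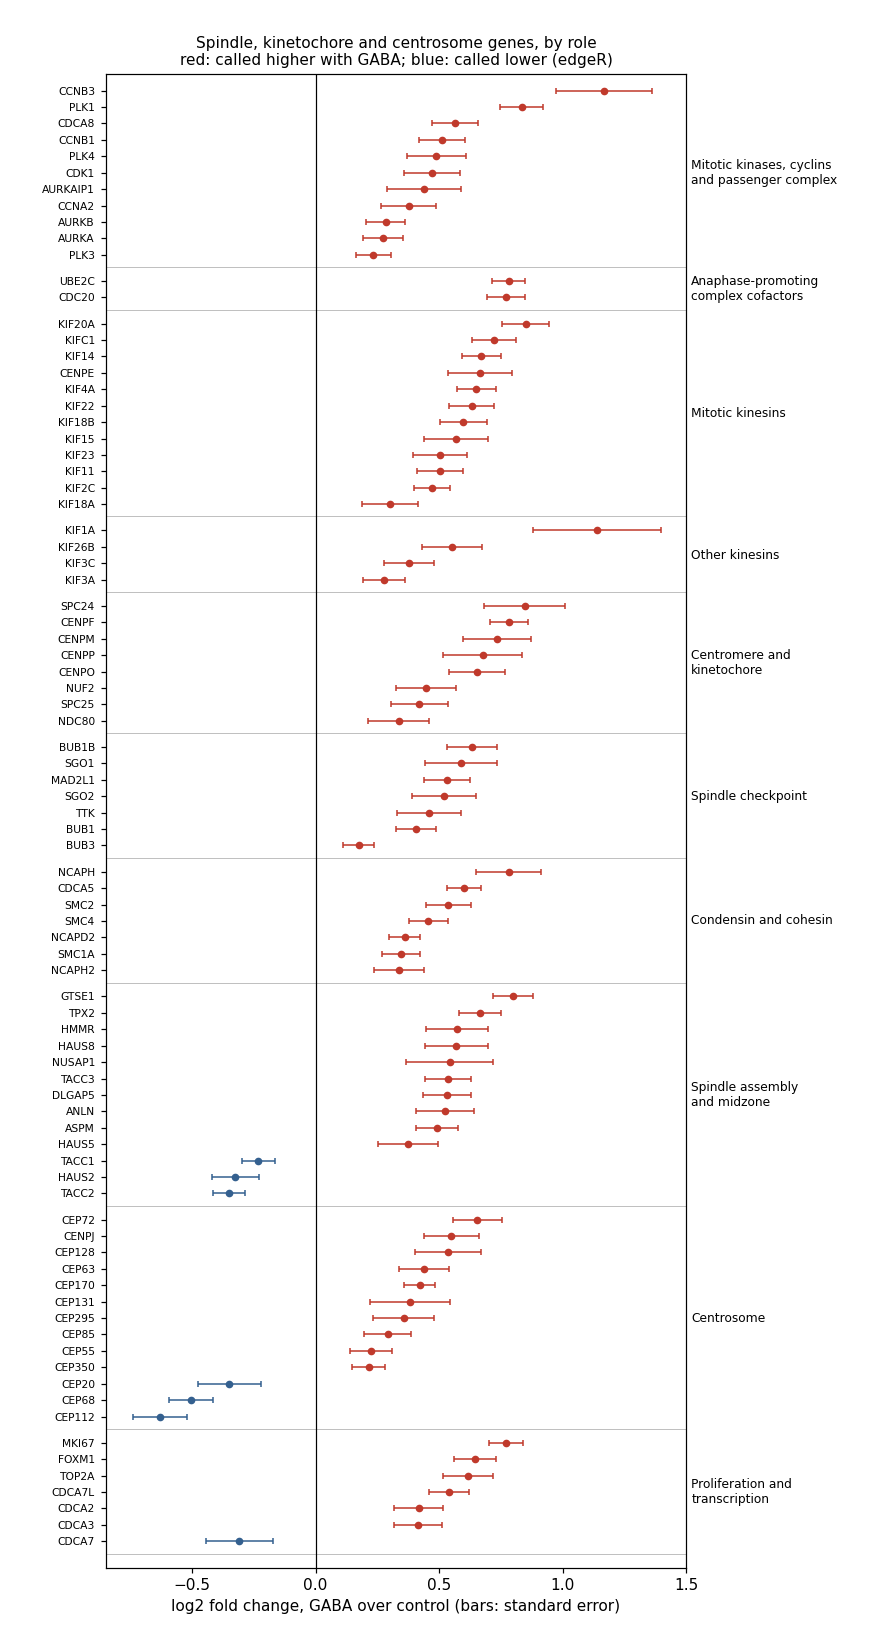
Log2 fold change of GABA over control for each of the 84 members, grouped by role, with bars for the standard error of the fit and colours for the call. The 77 members called higher lie between 0.17 and 1.17, and the 7 called lower lie between -0.63 and -0.23; TACC1, HAUS2, CEP20 and CDCA7 lose that call when the median of all tested genes is set to 0.

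Promoter sequence was looked at as a description. The members were chosen by the names of mitotic genes, many of which are known to share the CHR. A high share of this element among them therefore follows from the choice of names. The part of the element in the change with GABA was not tested. RefSeq windows from 250 bases before to 50 bases after the start (GRCh38.p14) matched 72 of the 84 members, 66 called higher and 6 called lower. UBE2C, CENPM, CENPJ, NCAPH2, KIF26B, AURKA, FOXM1, CDCA2, TPX2, TACC1, TTK and BUB3 had no matching entry. Both strands were searched for the CHR (TTTGAA or TTCGAA), the CCAAT box (CCAAT) and an E2F element (TTTCCCGC or TTTGGCGC). Different motifs shared bases in 2 places, a CHR and a CCAAT match in CDCA8 and in MKI67.

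A CHR match from 100 bases before to 50 after the start was present in 37 of the 66 higher members with a window, or 56.1%. Of the 6 lower members 0 had one. The share was 9.42% of 1805 tested genes called higher, 6.59% of 1881 tested genes called lower and 9.09% of all 27305 genes in the table. In the whole window the element was present in 40 of 66 higher members and 2 of 6 lower members, against 19.5% of all genes in the table. CCAAT near the start was found in 35 of 66 higher members (53.03%) and 2 of 6 lower members, against 25.3% of all genes. Both elements together near the start were present in 24 of 66 higher members (36.4%), 0 of 6 lower members and 2.85% of all genes. The E2F element was rarer, in 6 of 66 higher members (9.09%), 1 of 6 lower members and 2.75% of all genes. A match is a run of letters and not a site shown to be bound. Only the letters named above were searched, so a gene without a match can still hold another form of an element.

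The stretches below show how these letters lie in members the results turn on. Each runs 5′ to 3′ on the transcript strand, 100 bases before to 50 bases after the RefSeq start, with matches to any of the motifs in capitals. TTCAAA and ATTGG are the CHR and the CCAAT box read on the other strand. The first 6 are higher members with a CHR match in this stretch. CCNB1 is a higher member with CCAAT matches only, and CEP68 and HAUS2 are lower members with no match.
PLK1 (chr16:23678789-23678938, plus strand): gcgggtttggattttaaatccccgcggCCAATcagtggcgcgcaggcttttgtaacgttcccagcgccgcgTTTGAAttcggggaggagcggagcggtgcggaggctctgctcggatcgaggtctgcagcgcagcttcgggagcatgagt
CDC20 (chr1:43358881-43359030, plus strand): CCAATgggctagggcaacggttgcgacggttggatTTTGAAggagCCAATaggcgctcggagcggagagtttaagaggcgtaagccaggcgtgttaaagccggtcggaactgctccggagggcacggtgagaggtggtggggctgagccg
KIF4A (chrX:70290004-70290153, plus strand): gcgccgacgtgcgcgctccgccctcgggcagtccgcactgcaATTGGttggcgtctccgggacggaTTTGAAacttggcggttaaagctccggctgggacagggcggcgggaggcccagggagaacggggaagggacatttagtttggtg
GTSE1 (chr22:46296770-46296919, plus strand): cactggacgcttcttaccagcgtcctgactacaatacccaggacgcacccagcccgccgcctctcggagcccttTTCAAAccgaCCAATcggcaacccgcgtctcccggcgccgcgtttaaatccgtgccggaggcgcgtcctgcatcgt
MKI67 (chr10:128126374-128126523, minus strand): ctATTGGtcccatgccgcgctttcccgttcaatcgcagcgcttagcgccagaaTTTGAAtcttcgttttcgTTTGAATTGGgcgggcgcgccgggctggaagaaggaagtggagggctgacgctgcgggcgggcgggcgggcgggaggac
BUB1 (chr2:110678014-110678163, minus strand): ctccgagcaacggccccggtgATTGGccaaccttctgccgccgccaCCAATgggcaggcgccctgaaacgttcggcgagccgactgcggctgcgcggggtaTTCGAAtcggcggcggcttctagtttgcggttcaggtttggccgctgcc
CCNB1 (chr5:69167050-69167199, plus strand): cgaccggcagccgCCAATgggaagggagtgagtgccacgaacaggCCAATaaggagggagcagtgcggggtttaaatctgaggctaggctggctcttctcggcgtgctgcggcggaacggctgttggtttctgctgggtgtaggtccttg
CEP68 (chr2:65056316-65056465, plus strand): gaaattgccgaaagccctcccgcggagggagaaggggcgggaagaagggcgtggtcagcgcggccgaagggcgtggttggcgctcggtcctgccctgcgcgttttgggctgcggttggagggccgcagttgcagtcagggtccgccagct
HAUS2 (chr15:42548738-42548887, plus strand): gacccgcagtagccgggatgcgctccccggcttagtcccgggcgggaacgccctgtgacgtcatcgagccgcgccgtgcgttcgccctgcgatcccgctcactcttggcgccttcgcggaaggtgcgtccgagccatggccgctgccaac

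In PLK1 the CHR began 29 bases before the start and one CCAAT box stood upstream of it, while CDC20 had a CHR 65 bases before the start between a pair of CCAAT boxes. MKI67 had CHR letters at more than one place, the later of which ran into an inverted CCAAT box. BUB1 carried the TTCGAA form right at the start. Across the higher members there were 54 CHR matches in the whole window, 35 of them from 50 bases before to 20 after the start, in 30 genes. Matches were counted per RefSeq window, and overlapping windows of KIF22 share a match that is counted in each. The median place of a match was 24.5 bases before the start.

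The element was unevenly spread over the roles. It was near the start in 9 of 12 mitotic kinesins, 5 of 7 kinetochore genes, 4 of 5 checkpoint genes and 6 of 11 spindle assembly genes with a window. It was present in 3 of 6 condensin and cohesin genes, 4 of 10 kinases and cyclins, 2 of 5 proliferation genes and CDC20, the one anaphase-promoting gene with a window. It was present in 3 of 12 centrosome genes and 0 of 3 other kinesins. Among the higher members, the 37 with a match near the start had a median log2 fold change of 0.56 (0.22 to 0.83). The 29 without a match there had a median of 0.47 (0.21 to 1.17). These ranges overlap almost fully, and whether the letters go with the size of the change was not tested.

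**Figure D2:**
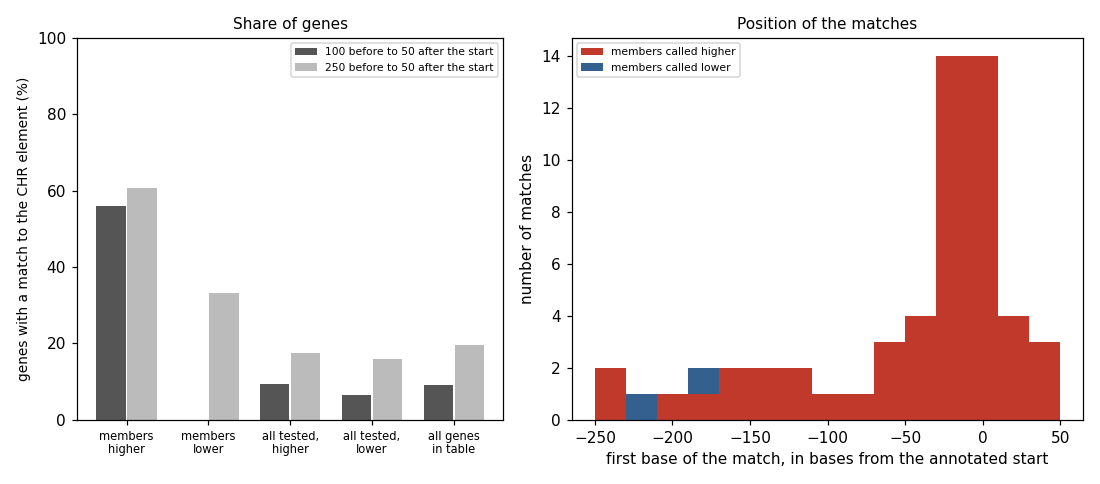
Share of genes in percent with a CHR match near the start (dark bars) or anywhere in the window (light bars), for members called higher (n = 66), members called lower (n = 6), all tested genes called higher or lower and all genes in the RefSeq table (left), and the number of CHR matches of the members by place in the window (right). The share near the start is 56.1% in higher members, 0 of 6 in lower members and 9.09% in the whole table, and matches of the higher members gather in the bases just before the start.

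The mitotic kinases, cyclins and chromosomal passenger genes were 11 members, all 11 called higher, with a median log2 fold change of 0.47 (0.23 to 1.17). PLK1, the Polo kinase that acts from mitotic entry to cytokinesis (chromosome 16, 23677656 to 23690367, GENCODE 29 on GRCh38), had 196, 198 and 172 CPM in the GABA libraries, against 106, 95.9 and 115 CPM in the control libraries. The lowest GABA library lay far above the highest control library (log2 fold change 0.83 ± 0.09, edgeR adjusted p = 2.1e-05). CDCA8, which encodes the passenger subunit borealin, had 130.0, 143 and 122 CPM in the GABA libraries, against 80.5, 97.5 and 89.4 CPM in the control libraries (log2 fold change 0.56 ± 0.09, edgeR adjusted p = 0.00037). CCNB3, a B-type cyclin best known from meiosis, had few counts, with 10.7, 13.05 and 13.1 CPM in the GABA libraries, against 4.98, 4.92 and 6.49 CPM in the control libraries. It had the largest fold of the members (log2 fold change 1.17 ± 0.19, edgeR adjusted p = 0.00042).

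The core pair of the mitotic switch changed less than PLK1 and CCNB3, but neither gene lay under the group's median of 0.47. CCNB1, the main mitotic cyclin (chromosome 5, 69167010 to 69178245), had 354, 387 and 352 CPM in the GABA libraries, against 242, 227 and 298 CPM in the control libraries (log2 fold change 0.51 ± 0.09, edgeR adjusted p = 0.00072). CDK1, its kinase (chromosome 10, 60778331 to 60794852), had 283, 273 and 252 CPM in the GABA libraries, against 178, 166 and 238 CPM in the control libraries (log2 fold change 0.47 ± 0.11, edgeR adjusted p = 0.0031). For both, control 3 was the highest control library. It lay close under the lowest GABA library in CDK1 and further below it in CCNB1. The ratio of CCNB1 to CDK1 within each library was 1.25, 1.42 and 1.40 with GABA and 1.36, 1.36 and 1.25 in control, so this ratio did not separate the groups. CCNA2, the cyclin of S phase and early mitosis, had 96.97, 115 and 98.1 CPM in the GABA libraries, against 79.5, 67.98 and 91.2 CPM in the control libraries (log2 fold change 0.38 ± 0.11, edgeR adjusted p = 0.0085).

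The Aurora kinases were among the small changes. AURKA, the Aurora kinase of the centrosome and spindle poles, had 135, 139.8 and 128 CPM in the GABA libraries, against 121, 108 and 104 CPM in the control libraries (log2 fold change 0.27 ± 0.08, edgeR adjusted p = 0.0088). AURKB, the enzyme of the passenger complex, had 122, 124 and 112 CPM in the GABA libraries, against 101, 101 and 92.3 CPM in the control libraries (log2 fold change 0.28 ± 0.08, edgeR adjusted p = 0.0068). The lowest GABA library stood above the highest control library in both genes, with a narrow gap. PLK1 rose relative to AURKA, at 1.45, 1.42 and 1.35 times its CPM in the GABA libraries, against 0.881, 0.888 and 1.10 times in the control libraries. PLK4, the kinase that starts centriole duplication, had a log2 fold change of 0.49, and PLK3, a stress-linked Polo kinase, one of 0.23. AURKAIP1 entered the list by its name; its product was described as an Aurora-A binding protein and is also found in mitochondrial ribosomes. It had 106, 94.3 and 93.7 CPM in the GABA libraries, against 81.4, 84.2 and 51.2 CPM in the control libraries (log2 fold change 0.44 ± 0.15, edgeR adjusted p = 0.016), and its lowest library by far was control 3. Without control 3 its log2 fold change was 0.24 (edgeR adjusted p = 0.0056), and without GABA 1 the call was lost (edgeR adjusted p = 0.066).

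UBE2C and CDC20 work with the anaphase-promoting complex, UBE2C as its ubiquitin-conjugating enzyme and CDC20 as its activator in metaphase. UBE2C (chromosome 20, 45812576 to 45816957) had 221, 230.5 and 224 CPM in the GABA libraries, against 127, 128 and 139 CPM in the control libraries. Its libraries were tight in both groups, with means of 225 ± 4.83 CPM with GABA and 131 ± 6.56 CPM in control (SD, n = 3 each), and the gene had the smallest adjusted p of the members (log2 fold change 0.78 ± 0.07, edgeR adjusted p = 5.4e-06). CDC20 (chromosome 1, 43358955 to 43363203) had 446, 466 and 457 CPM in the GABA libraries, against 278, 286 and 239 CPM in the control libraries (log2 fold change 0.77 ± 0.08, edgeR adjusted p = 1.4e-05). Set per kilobase of the longest transcript, CDC20 and UBE2C were the most abundant members, at levels of 257 and 246 CPM per kb with GABA and 151 and 143 CPM per kb in control. TOP2A followed at 219 CPM per kb with GABA and 143 CPM per kb in control.

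**Figure D3:**
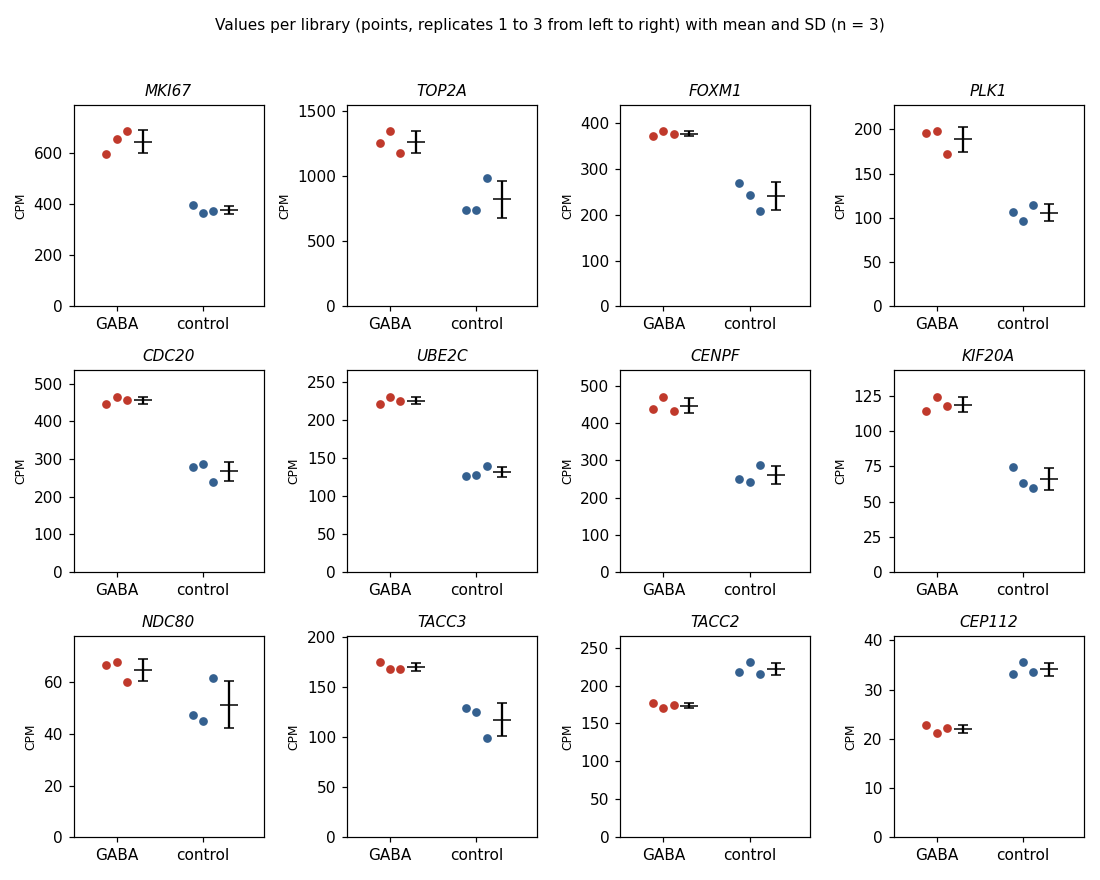
CPM in each library for selected members, with GABA libraries left of control libraries, points for single libraries and a bar for the mean and SD of 3. In UBE2C, CDC20, PLK1 and MKI67 all GABA points lie above all control points, and in CEP112 and TACC2 all GABA points lie below.

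Centromere and kinetochore genes gave 8 members, all 8 called higher, with a median log2 fold change of 0.66 (0.34 to 0.85). Other names that the rule covers, such as CENPA, CENPC, CENPH, CENPI, CENPK, SKA1, SKA2 and SKA3, are not listed. These counts therefore do not describe the whole kinetochore. CENPF, a large outer kinetochore protein made in G2 (chromosome 1, 214603195 to 214664588), had 438, 472 and 433 CPM in the GABA libraries, against 251, 242 and 287 CPM in the control libraries (log2 fold change 0.78 ± 0.08, edgeR adjusted p = 1.3e-05). CENPO and CENPM belong to the inner kinetochore network that stays on the centromere. CENPO had 41.6, 47.8 and 43.8 CPM in the GABA libraries, against 29.1, 30.4 and 25.1 CPM in the control libraries (log2 fold change 0.65 ± 0.11, edgeR adjusted p = 0.00053), and CENPM had 39.8, 42.4 and 40.2 CPM in the GABA libraries, against 21.4, 22.01 and 30.3 CPM in the control libraries (log2 fold change 0.73 ± 0.14, edgeR adjusted p = 0.00078). All GABA libraries were above all control libraries in each of these genes. CENPO and the inner kinetochore gene CENPP share 31.4% and 42.7% of their exon bases with other annotated genes, so their counts are uncertain; CENPP had a log2 fold change of 0.68.

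The NDC80 complex is the 4-subunit rod that grips the microtubule, and all 4 of its genes were called higher, by unequal amounts. SPC24 had 41.6, 37.2 and 34.1 CPM in the GABA libraries, against 20.03, 26.8 and 16.02 CPM in the control libraries (log2 fold change 0.85 ± 0.16, edgeR adjusted p = 0.001). SPC25, its partner at the inner end of the rod, had 26.7, 29.7 and 27.8 CPM in the GABA libraries, against 20.4, 21.5 and 21.1 CPM in the control libraries (log2 fold change 0.42 ± 0.11, edgeR adjusted p = 0.006). Control libraries of SPC24 were scattered with control 3 lowest, while those of SPC25 were close together. At the microtubule end, NUF2 had 84.00, 87.1 and 82.6 CPM in the GABA libraries, against 60.7, 50.6 and 74.9 CPM in the control libraries (log2 fold change 0.45 ± 0.12, edgeR adjusted p = 0.0062). NDC80 itself had 66.5, 67.6 and 59.7 CPM in the GABA libraries, against 47.1, 44.9 and 61.5 CPM in the control libraries (log2 fold change 0.34 ± 0.12, edgeR adjusted p = 0.02). In NDC80 control 3 reached above the lowest GABA library, so the groups overlapped, and in NUF2 control 3 was the highest control library. The ratio of SPC24 to NDC80 was 0.625, 0.551 and 0.571 with GABA and 0.425, 0.597 and 0.260 in control, so that a shift in the make-up of the complex was not resolved. The call of NDC80 was lost without GABA 1, GABA 2, control 1 or control 2, with edgeR adjusted p values of up to 0.079.

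Spindle checkpoint genes gave 7 members, all 7 called higher, with a median of 0.52 (0.17 to 0.63). BUB1B, which encodes the checkpoint protein BUBR1, had 73.5, 90.8 and 86.97 CPM in the GABA libraries, against 52.2, 52.4 and 57.6 CPM in the control libraries (log2 fold change 0.63 ± 0.10, edgeR adjusted p = 0.00034). MAD2L1, the MAD2 protein that binds CDC20, had 82.3, 86.3 and 81.1 CPM in the GABA libraries, against 53.9, 55.03 and 63.7 CPM in the control libraries (log2 fold change 0.53 ± 0.09, edgeR adjusted p = 0.00057). BUB1, a kinase that marks the inner centromere, had 218, 234 and 218 CPM in the GABA libraries, against 159.8, 156 and 189 CPM in the control libraries (log2 fold change 0.41 ± 0.08, edgeR adjusted p = 0.0012). GABA libraries were above control libraries in all 3, and control 3 was the highest control library for all 7 checkpoint genes. TTK, the kinase at the top of the checkpoint, and the shugoshins SGO1 and SGO2, which guard centromeric cohesion, had log2 fold changes of 0.46, 0.59 and 0.52. BUB3, the partner of BUB1 and BUBR1, changed least of the higher members, with 457, 458 and 458 CPM in the GABA libraries, against 406, 384 and 428 CPM in the control libraries (log2 fold change 0.17 ± 0.06, edgeR adjusted p = 0.02). Its call was lost when any one library other than control 3 was left out, with edgeR adjusted p values of up to 0.072.

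The mitotic kinesins, motors that slide, bundle or shorten spindle microtubules, gave 12 members. All 12 were called higher, with a median of 0.61 (0.30 to 0.85). KIF20A, a midzone motor needed for cytokinesis (chromosome 5, 138178719 to 138187715), had 114, 125 and 118 CPM in the GABA libraries, against 74.9, 63.2 and 60.02 CPM in the control libraries (log2 fold change 0.85 ± 0.10, edgeR adjusted p = 3.3e-05). KIF14, a midbody motor, had 155, 163 and 152 CPM in the GABA libraries, against 95.6, 92.8 and 107 CPM in the control libraries (log2 fold change 0.67 ± 0.08, edgeR adjusted p = 4.5e-05). KIF4A, a chromosome-bound motor that sets the length of the midzone, had 224, 231 and 217 CPM in the GABA libraries, against 137, 132 and 159 CPM in the control libraries (log2 fold change 0.65 ± 0.08, edgeR adjusted p = 5.2e-05). In these genes the gap between the groups was wide compared with the spread within either. KIF4A has a near-identical gene copy, KIF4B, with which reads could be exchanged.

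KIF11, the bipolar motor that pushes the poles apart and a drug target, had 209, 217 and 200.4 CPM in the GABA libraries, against 141, 129.7 and 171 CPM in the control libraries (log2 fold change 0.50 ± 0.09, edgeR adjusted p = 0.00078). CENPE, a kinetochore motor that carries chromosomes to the plate, had 159, 176 and 167 CPM in the GABA libraries, against 98.3, 85.6 and 133 CPM in the control libraries (log2 fold change 0.67 ± 0.13, edgeR adjusted p = 0.00098). In both, control 3 was the highest control library and remained below the GABA libraries. KIFC1, the minus-end motor that gathers extra centrosomes, had a log2 fold change of 0.72, the chromosome-arm motor KIF22 one of 0.63 and the microtubule depolymerase KIF2C one of 0.47. KIF18B, KIF23 and KIF15 had 0.60, 0.50 and 0.57. KIF18A, which damps chromosome movements, was the smallest at 0.30, and its groups overlapped through control 3. Its call was lost without GABA 1, GABA 2, control 1 or control 2, at the most with an edgeR adjusted p of 0.094, and its log2 fold change was 0.19 without control 2.

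The 4 kinesins outside the mitotic group were all called higher, with a median of 0.46. KIF1A, an axonal transport motor, had 14.9, 11.8 and 12.4 CPM in the GABA libraries, against 7.53, 6.99 and 3.18 CPM in the control libraries (log2 fold change 1.14 ± 0.26, edgeR adjusted p = 0.0025). Its counts were low, and control 3 was under 0.5 of the level of the other control libraries. KIF26B had 27.4, 30.1 and 30.6 CPM in the GABA libraries, against 21.00, 21.1 and 17.9 CPM in the control libraries (log2 fold change 0.55 ± 0.12, edgeR adjusted p = 0.0021). KIF3C had 96.8, 97.02 and 115 CPM in the GABA libraries, against 83.6, 84.3 and 69.9 CPM in the control libraries (log2 fold change 0.38 ± 0.10, edgeR adjusted p = 0.0056), and KIF3A, its relative in kinesin-2 and a motor of ciliary transport, had a log2 fold change of 0.28, which lost its call without GABA 3 (edgeR adjusted p = 0.051). The ratio of KIF20A to KIF3A was 0.907, 1.03 and 0.869 with GABA, against 0.710, 0.656 and 0.527 in control, and this ratio was higher in every GABA library than in any control library.

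Spindle assembly and midzone genes gave 13 members, of which 10 were called higher and 3 lower, with a median of 0.53. GTSE1, a microtubule plus-end protein of G2 and mitosis, had 119.8, 137 and 128 CPM in the GABA libraries, against 76.1, 73.02 and 72.6 CPM in the control libraries (log2 fold change 0.80 ± 0.08, edgeR adjusted p = 1.9e-05). TPX2, which activates Aurora A on the spindle, had 477, 529.9 and 484 CPM in the GABA libraries, against 293, 290.2 and 357 CPM in the control libraries (log2 fold change 0.67 ± 0.08, edgeR adjusted p = 7.6e-05). ASPM, a protein of the spindle poles, had 192, 222 and 207 CPM in the GABA libraries, against 146, 134 and 162 CPM in the control libraries (log2 fold change 0.49 ± 0.08, edgeR adjusted p = 0.00049). GABA libraries were above control libraries in all 3. DLGAP5 and HMMR, which bind and organise spindle microtubules, had log2 fold changes of 0.53 and 0.57, and ANLN, a scaffold of the contractile ring, one of 0.52. NUSAP1 had few counts, with 11.8, 10.7 and 13.2 CPM in the GABA libraries, against 7.28, 8.42 and 8.90 CPM in the control libraries (log2 fold change 0.54 ± 0.18, edgeR adjusted p = 0.013), and shares 62.2% of its exon bases with an overlapping gene on the same strand, so its counts are uncertain. Its call was lost without GABA 3 (edgeR adjusted p = 0.054).

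The TACC family split. TACC3, the mitotic member that steadies kinetochore fibres with clathrin, had 175, 168 and 168 CPM in the GABA libraries, against 128, 125 and 98.7 CPM in the control libraries (log2 fold change 0.54 ± 0.09, edgeR adjusted p = 0.00058). TACC2, another centrosome-linked member, had 177, 169.9 and 174 CPM in the GABA libraries, against 218, 231 and 216 CPM in the control libraries (log2 fold change -0.35 ± 0.06, edgeR adjusted p = 0.00071). TACC1 had 225, 243 and 248 CPM in the GABA libraries, against 274, 274 and 292 CPM in the control libraries (log2 fold change -0.23 ± 0.07, edgeR adjusted p = 0.0077), a call that was lost when the median of all tested genes was set to 0. Within each library, which no scaling changes, TACC3 stood at 0.988, 0.986 and 0.965 times the CPM of TACC2 with GABA, against 0.590, 0.541 and 0.457 times in control. The ratio of TACC3 to TACC1 was 0.776, 0.690 and 0.678 with GABA, against 0.469, 0.455 and 0.338 in control. Neither ratio overlapped between the groups. Neither could, as every GABA library lay above every control library in TACC3 and below in TACC1 and TACC2. These gene pairs, like the others set in ratio here, were picked after their values had been seen.

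Augmin, the HAUS complex that seeds new microtubules on the sides of old ones, had 3 listed subunits, also split. HAUS8, the subunit that holds the existing microtubule, had 29.8, 32.2 and 26.3 CPM in the GABA libraries, against 20.6, 20.8 and 17.9 CPM in the control libraries (log2 fold change 0.57 ± 0.13, edgeR adjusted p = 0.0022), and HAUS5 had a log2 fold change of 0.37, which lost its call without GABA 1 (edgeR adjusted p = 0.062). HAUS2 had 49.3, 51.03 and 49.3 CPM in the GABA libraries, against 67.5, 57.1 and 62.8 CPM in the control libraries (log2 fold change -0.32 ± 0.10, edgeR adjusted p = 0.0084), and its call was lost when the median of all tested genes was set to 0. HAUS8 stood at 0.604, 0.630 and 0.533 times the CPM of HAUS2 with GABA and 0.306, 0.365 and 0.285 times in control. An overlap was not possible here, as every GABA library lay above every control library in HAUS8 and below in HAUS2. Listed subunits of this complex thus differed in direction under the main scaling, with HAUS2 alone lower. Under the median scaling the log2 fold change of HAUS2 was -0.15 (edgeR adjusted p = 0.19). The subunit genes HAUS1, HAUS3, HAUS4, HAUS6 and HAUS7 are not listed.

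Condensin folds chromatin into mitotic chromosomes and cohesin holds sister chromatids, and their 7 members were all called higher, with a median of 0.46 (0.34 to 0.78). CDCA5, which encodes sororin, the protector of cohesin, had 225, 226 and 206 CPM in the GABA libraries, against 145, 149.5 and 138 CPM in the control libraries (log2 fold change 0.60 ± 0.07, edgeR adjusted p = 4.2e-05). NCAPH, the kleisin of condensin I, had 53.2, 45.5 and 50.98 CPM in the GABA libraries, against 29.9, 23.6 and 33.6 CPM in the control libraries (log2 fold change 0.78 ± 0.13, edgeR adjusted p = 0.00044). SMC2, an ATPase common to both condensins, had 193, 193 and 175 CPM in the GABA libraries, against 132, 111 and 143 CPM in the control libraries (log2 fold change 0.54 ± 0.09, edgeR adjusted p = 0.0005). The groups stood apart in each of these genes. SMC4, its partner ATPase, had a log2 fold change of 0.46, with 25.6% of its exon bases shared with genes on the opposite strand. NCAPD2 of condensin I had 0.36 and NCAPH2 of condensin II had 0.34, so all 5 listed condensin genes moved one way. The condensin genes NCAPG, NCAPG2 and NCAPD3 are not listed. The cohesin ATPase SMC1A had 0.34.

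The centrosome group was mixed in direction. Of its 13 members, 12 CEP genes and CENPJ, 10 were called higher and 3 lower, with a median of 0.36 (-0.63 to 0.65). CEP72, a satellite and pericentriolar protein, had 49.96, 47.5 and 49.6 CPM in the GABA libraries, against 29.5, 30.8 and 33.2 CPM in the control libraries (log2 fold change 0.65 ± 0.10, edgeR adjusted p = 0.00024). CEP170, a protein of the subdistal appendages, had 363, 368 and 373 CPM in the GABA libraries, against 269, 266 and 291 CPM in the control libraries (log2 fold change 0.42 ± 0.06, edgeR adjusted p = 0.00024). CENPJ, which sets centriole length and carries a centromere-type symbol, had 32.4, 35.3 and 32.8 CPM in the GABA libraries, against 21.7, 22.5 and 24.4 CPM in the control libraries (log2 fold change 0.55 ± 0.11, edgeR adjusted p = 0.0013). GABA libraries were above control libraries in all 3. CEP63 and CEP128, a centriole duplication factor and an appendage protein, had log2 fold changes of 0.44 and 0.54. CEP131, CEP295, CEP85 and CEP350 had smaller ones, 0.38, 0.36, 0.29 and 0.21. CEP55, which works in abscission at the midbody and not at the interphase centrosome, had 0.22 with overlapping groups. With a library left out, calls were lost for CEP55 (GABA 1, GABA 2, control 1 or control 2, edgeR adjusted p up to 0.0995), CEP295 (GABA 2, GABA 3 or control 1, up to 0.077), CEP85 (GABA 3, 0.057) and CEP131 (GABA 1, GABA 3 or control 3, up to 0.11). Without control 3 the log2 fold change of CEP131 was 0.18.

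The 3 lower centrosome genes included the largest fall of the list. CEP112, a coiled-coil centrosome protein (chromosome 17, 65635538 to 66192084), had 22.7, 21.2 and 22.2 CPM in the GABA libraries, against 33.1, 35.6 and 33.6 CPM in the control libraries. Means were 22.03 ± 0.785 CPM with GABA and 34.1 ± 1.32 CPM in control (SD, n = 3 each), a gap many times the SD (log2 fold change -0.63 ± 0.11, edgeR adjusted p = 0.00052). CEP68, a linker between the paired centrioles, had 47.7, 43.8 and 47.8 CPM in the GABA libraries, against 66.3, 65.3 and 66.1 CPM in the control libraries (log2 fold change -0.50 ± 0.09, edgeR adjusted p = 0.00061). Both falls kept their call under the median scaling, at log2 fold changes of -0.45 and -0.33. CEP20, a small protein of the centriolar satellites, had 79.5, 81.5 and 76.2 CPM in the GABA libraries, against 87.4, 88.95 and 126 CPM in the control libraries (log2 fold change -0.35 ± 0.13, edgeR adjusted p = 0.02). Its control libraries were uneven, with control 3 high, and its call was lost under the median scaling. Without control 3 its log2 fold change was -0.16 (edgeR adjusted p = 0.0485), and the call was also lost without GABA 1 or GABA 3 (up to 0.069). CEP72 stood at 2.20, 2.24 and 2.23 times the CPM of CEP112 with GABA and 0.890, 0.865 and 0.989 times in control.

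The 7 proliferation and transcription members had 6 called higher and 1 lower, with a median of 0.54. MKI67, the Ki-67 antigen that coats mitotic chromosomes (chromosome 10, 128096659 to 128126385), had 593, 653 and 684 CPM in the GABA libraries, against 396, 365 and 372 CPM in the control libraries. The lowest GABA library was far above the highest control library (log2 fold change 0.77 ± 0.07, edgeR adjusted p = 7.2e-06). FOXM1, the forkhead factor of the G2 and M genes (chromosome 12, 2857681 to 2877155), had 371, 382 and 375 CPM in the GABA libraries, against 269, 243 and 208 CPM in the control libraries (log2 fold change 0.65 ± 0.09, edgeR adjusted p = 9.5e-05). TOP2A, the topoisomerase that untangles sister DNA (chromosome 17, 40388516 to 40417950), had 1256, 1345 and 1179.7 CPM in the GABA libraries, against 740.3, 740.0 and 985 CPM in the control libraries (log2 fold change 0.62 ± 0.10, edgeR adjusted p = 0.00037). The GABA libraries of FOXM1 were almost equal, whereas TOP2A in control 3 stood well above the other control libraries.

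CDCA7L had 128, 113 and 115 CPM in the GABA libraries, against 83.6, 82.9 and 78.2 CPM in the control libraries (log2 fold change 0.54 ± 0.08, edgeR adjusted p = 0.00023). CDCA2, which brings protein phosphatase 1 to anaphase chromatin, and CDCA3, a factor of mitotic entry, had log2 fold changes of 0.42 and 0.41. CDCA7, the relative of CDCA7L with a role in DNA methylation at centromeric repeats, went the other way with 35.6, 38.5 and 45.3 CPM in the GABA libraries, against 50.9, 40.4 and 56.8 CPM in the control libraries (log2 fold change -0.31 ± 0.14, edgeR adjusted p = 0.042). Its groups overlapped, it had the weakest adjusted p of the members, and DESeq2 gave an adjusted p of 0.074. The call was lost without GABA 1, GABA 2, control 1 or control 3 (edgeR adjusted p up to 0.17) and under the median scaling, and its log2 fold change was -0.20 without control 3.

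**Figure D4:**
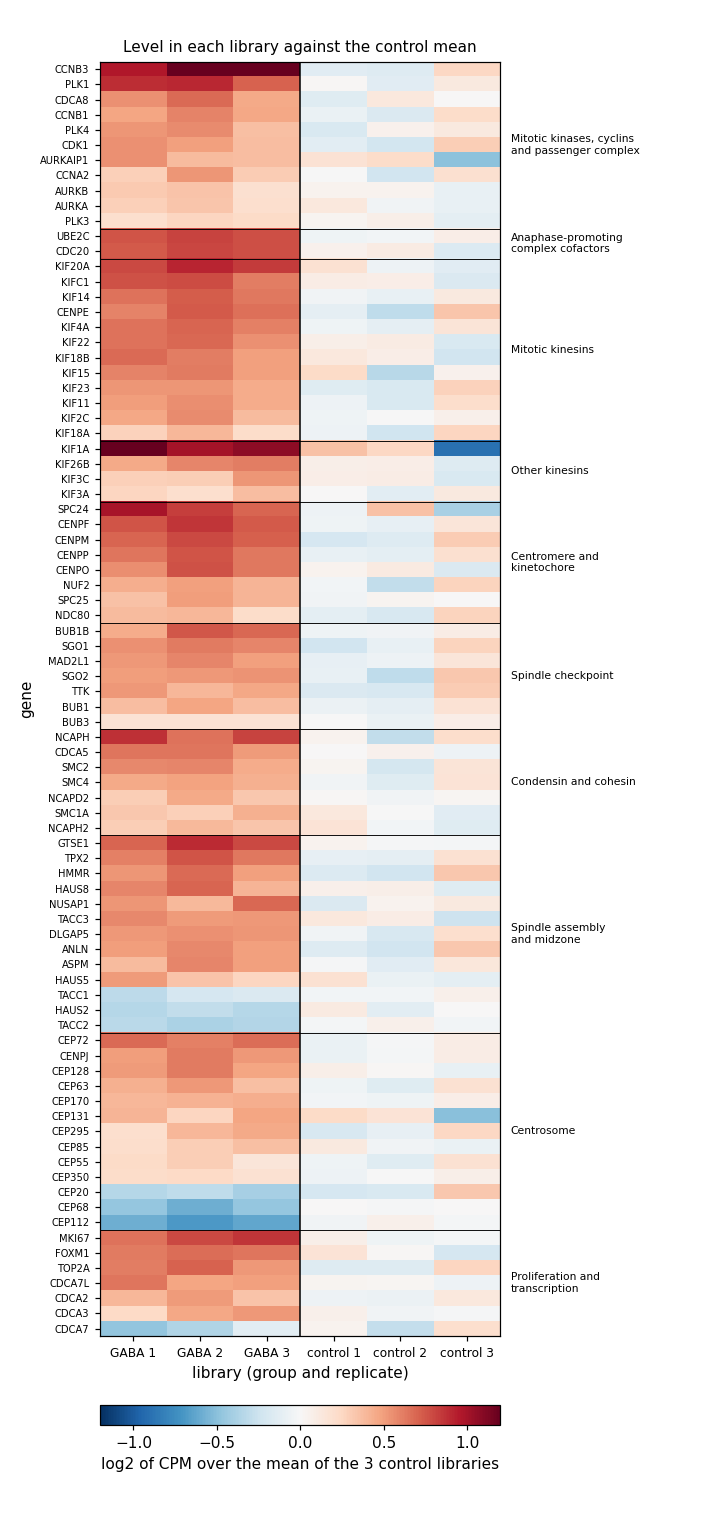
Log2 of each member's CPM in each of the 6 libraries over its control mean, with GABA libraries left of control libraries and members sorted within roles. The median over the 84 members was 0.51, 0.55 and 0.47 in GABA replicates 1, 2 and 3 and -0.03, -0.06 and 0.09 in control replicates 1, 2 and 3.

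Replicates of the members were closer together with GABA than in control, as they were for all tested genes. The median coefficient of variation was 5.32% with GABA and 10.3% in control, against 5.25% with GABA and 9.58% in control for all tested genes. GABA 2 was the highest GABA library for 54 of 84 members, and GABA 3 the lowest for 38. Control 3 was the highest control library for 49 members and the lowest for 27. Sorted by GC content, control 3 was the highest control library for 37 of the 42 members at or under the median of 44.8% and for 12 of the 42 above it. Its log2 ratio to the other controls was highest in CENPE at 0.53 and lowest in KIF1A at -1.19. What gave control 3 this pattern was not tested, and the counts of calls without it are given above.

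The difference between the groups was also set against GC content. Among the 42 members at or under the median GC content, 37 members were called higher and 5 lower, with a median log2 fold change of 0.48, and among the 42 above it 40 were called higher and 2 lower, with a median of 0.58. Across the 84 members, log2 fold change had a Spearman correlation of 0.22 with GC content and 0.22 across all tested genes. With transcript length the Spearman correlation of log2 fold change was -0.034 in the members. Higher calls made up most of each set of 42, against 47.6% of all tested genes of any GC content. The part of GC content in the difference was not tested.

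**Figure D5:**
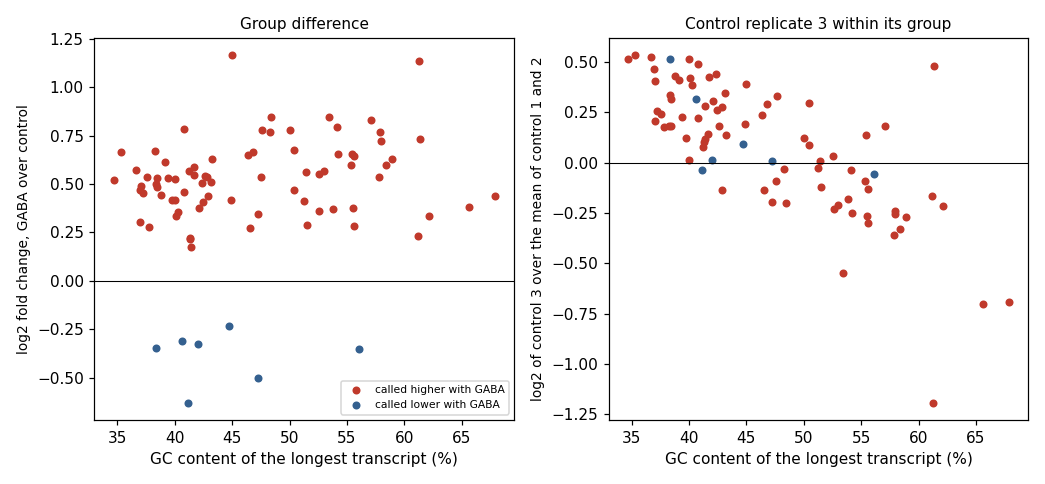
GC content of the longest transcript of each member against the log2 fold change of GABA over control (left) and against the log2 ratio of control replicate 3 to the mean of control replicates 1 and 2 (right). The left panel has a Spearman correlation of 0.22 and the right panel one of -0.74 (n = 84 genes), and points in the right panel fall with GC content while those on the left show little slope.

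Genes outside the members were described from 10 lists that hold 225 symbols in all, of which 95 were tested. The lists cover related machinery, and also transcription factors, regulators of cyclin-dependent kinases and targets of p53. Of these 73 were called higher, 19 lower and 3 not called, with a median log2 fold change of 0.32. The higher share was 76.8%, between the 47.6% of all tested genes and the 91.7% of the members. Where a gene named here as lower lost its call when the median of all tested genes was set to 0, this is said beside it.

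Other genes of the anaphase-promoting complex and its targets had 5 tested of 19, 4 higher and 1 lower. ESPL1, separase, the protease that cuts cohesin at anaphase, had 232, 235 and 238 CPM in the GABA libraries, against 129, 125 and 99.8 CPM in the control libraries (log2 fold change 1.00 ± 0.09, edgeR adjusted p = 7.6e-06). FZR1, the activator of the complex after anaphase, had a log2 fold change of 0.52. ANAPC16, a small subunit, had -0.35, without a call under the median scaling. Other kinetochore genes had 12 tested of 19, 11 higher and 1 lower. INCENP, the scaffold of the passenger complex, had 135, 148 and 136 CPM in the GABA libraries, against 87.1, 95.4 and 64.3 CPM in the control libraries (log2 fold change 0.76 ± 0.12, edgeR adjusted p = 0.0003), and KNL1, which receives the checkpoint proteins, had 0.58. ZWILCH, of the complex that brings dynein to kinetochores, had -0.47. Cohesin regulators had 3 tested of 11, all 3 higher, with ESCO2, the acetyltransferase of cohesin, at 0.60 and the kleisin RAD21 at 0.28.

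Centriole and pericentriolar genes had 15 tested of 33, 14 higher and 1 lower, with a median of 0.31. STIL, which works with PLK4 in centriole assembly, had 153, 159 and 144 CPM in the GABA libraries, against 92.4, 82.2 and 101 CPM in the control libraries (log2 fold change 0.73 ± 0.09, edgeR adjusted p = 5.3e-05). OFD1, of the distal centriole, had -0.41, without a call under the median scaling. Microtubule-binding genes had 18 tested of 36, 14 higher and 4 lower, with a median of 0.42. CKAP2L, a spindle protein, had 361, 374 and 347 CPM in the GABA libraries, against 194, 179 and 211 CPM in the control libraries (log2 fold change 0.89 ± 0.07, edgeR adjusted p = 4.4e-06), while MAP4, which binds interphase microtubules, and the dynein regulator PAFAH1B1 had -0.26 and -0.23, both without a call under the median scaling. Tubulins had 4 tested of 14, 3 higher and 1 lower. The lower one, TUBB2A, had -0.36, also without that call. TUBB2A lost its call as well without GABA 1, GABA 3, control 1 or control 2, and PAFAH1B1 without GABA 3, with edgeR adjusted p values of up to 0.19 and 0.057.

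Cytokinesis genes had 10 tested of 19, 6 higher, 3 lower and 1 not called. MYH10, a nonmuscle myosin heavy chain, had 149.5, 165 and 167 CPM in the GABA libraries, against 99.6, 99.6 and 86.3 CPM in the control libraries (log2 fold change 0.75 ± 0.08, edgeR adjusted p = 3.2e-05), and the citron kinase gene CIT had 0.62. SPAST and PDCD6IP, which work with the ESCRT machinery at abscission and elsewhere, had -0.25 and -0.20, neither called under the median scaling. SPAST also lost its call without GABA 2 or GABA 3, and PDCD6IP without GABA 1 or GABA 2, with edgeR adjusted p values of up to 0.094 and 0.087. Transcription factors of the mitotic program had 9 tested of 23, 7 higher and 2 lower. E2F8, a repressor of the E2F family, had 0.70, NFYA, a subunit of the CCAAT-binding factor, had 0.40 and TFDP2, a partner of E2F proteins, had -0.38. Regulators of cyclin-dependent kinases had 8 tested of 32, 5 higher and 3 lower. CCNF, an F-box cyclin of G2, had 0.77, the G1 cyclin CCND2 had -0.78 and the G1 kinase CDK6 had -0.28, the last without a call under the median scaling. The G1 genes did not move one way, as the G1 cyclin CCND3 was called higher at 0.49. Targets of p53 had 11 tested of 20, 6 higher, 3 lower and 2 not called, with a median of 0.24. MDM2 had 0.40 and CCNG2 had -0.50.

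Counting limits touch some members. Exon bases shared with other genes exceeded 25% in 4 members, CENPO, CENPP, NUSAP1 and SMC4, and 16 members have annotated pseudogene copies that could exchange reads, among them UBE2C, CDC20, MKI67, AURKA and BUB1. Members of the rule with no count here, such as BIRC5, CCNB2, PRC1 and KIF20B, were not analysed here. Each count of members by role covers listed genes only and not the whole complex or family.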

How the data were processed

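RNA was sequenced in 6 Huh7 libraries, 3 with GABA for 24 h and 3 control. The deposited values are whole-number read counts per gene and library, listed by Ensembl identifier. The submitters' processing notes name hg38, CASAVA 1.8 and Bowtie 0.12.2; the counting program, annotation and use of strand are not given in the sources used here. Of the identifiers, 5173 were given symbols by a table of gene names and 14 by GENCODE 29.

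All listed genes were fitted together in edgeR 4.0.16 (R 4.3.3): filterByExpr (minimum count 10, minimum total count 15) kept 4981 genes and removed 206, followed by TMM scaling, a robust quasi-likelihood fit with group as the only term, and Benjamini-Hochberg adjustment with a threshold of 0.05. CPM values were computed from the deposited counts with TMM factors and the totals on the listed genes. All 84 members passed the filter. Totals of 7702666 to 8392945 counts per library cover listed genes only. Exact permutation of 3 against 3 libraries cannot go under a two-sided p of 0.1 and was not used.

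The members, the outside lists and the naming rule were chosen with earlier results of these data known. Values per library were given for up to 3 higher and 2 lower members with the smallest p in each role, for a fixed set of well-known mitotic genes and for the extremes; in each outside list, up to 2 genes in each direction were taken, not all of which are named. Other members with values per library, and CCND3 from the outside lists, were picked after their values were seen. Alternatives were DESeq2 1.42.0, limma-voom (limma 3.58.1), other scalings, filters, a replicate block and each library left out. Promoter windows came from RefSeq. Python 3.11.15 with pandas 2.3.3, scipy 1.17.1 and matplotlib 3.10.9 handled tables and figures.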

Additional observations from a re-analysis of the deposited data

How the results depend on the processing

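Members called higher with GABA numbered 77 under each of the 10 alternatives that kept all libraries (2 other tests, 5 scalings, 2 filters and the replicate block), and 70 to 76 with a library left out. Members called lower numbered 7, or 6 with DESeq2, DESeq2 size factors or library totals, and 5 to 7 with a library left out. Setting the median log2 fold change of all tested genes to 0 gave 3 members called lower, a members' median of 0.69 against 0.52, and 1007 tested genes called lower against 2549; by construction it moves every fold change up by 0.18. Under that scaling E2F3, a transcription factor from the outside lists, turned to 0.0298. The members' median was 0.44 to 0.55 with a library left out. All tested genes called higher numbered 2081 to 2336 and called lower 1937 to 2399 with a library left out. In all settings 69 members kept their call, 15 lost it in at least 1 setting, and 0 changed sign.

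The replicate numbers were checked for pairing. Deviations of same-numbered libraries from their group means had correlations of 0.0003, -0.089 and -0.036 over 4981 genes, so the numbers are taken as names only. With the replicate number as a block, 77 members were called higher and 7 lower with a median of 0.53, and 2371 and 2452 tested genes were called higher and lower.

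The listed genes were preselected by this comparison, so the counts describe the selected genes.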
